A study of Mus musculus with 2 samples.

Results

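Lipid-associated macrophages of obese epididymal fat were taken as the barcodes that carried both macrophage and lipid-associated transcripts in 2 single-cell 3' RNA-seq libraries. A barcode qualified by 1500 UMIs (unique transcript tags) and 500 genes or more, of which no more than 15% of UMIs were mitochondrial. It then needed at least 20 UMIs of C1qa, C1qb and C1qc together per 10000 UMIs of the barcode (CP10k), at least 15 CP10k of Trem2, Gpnmb, Mmp12 and Atp6v0d2 together, and less than 40 CP10k of Col1a1, Col3a1 and Dcn together. These limits left 274 cells in the knockout library and 1276 in the wild-type library, 1550 of 26186 deposited barcodes. The other 933 knockout and 1622 wild-type barcodes that met the C1q and collagen limits are called other macrophages.

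Both libraries held stromal vascular cells of epididymal white adipose tissue, which are what remains when mature adipocytes are spun off from digested fat. The knockout (KO) mice lacked Camk2d conditionally in myeloid cells, the comparison mice were wild type (WT), and both had eaten a high-fat diet for 10 weeks. The labels give 1 library per genotype. They name neither the Cre driver, the deleted exons, the age nor the number of animals behind a library. Genotype, animal and library thus cannot be told apart. No difference between genotypes was therefore tested, and all intervals are 95% intervals that cover counting error only.

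Lipid-associated macrophages gather around dying adipocytes in obese fat, where they take up lipid through scavenger receptors and break it down in lysosomes. Trem2, a lipid-sensing receptor, signals through the adaptor Tyrobp and the kinase Syk and is needed for these cells to form in mice. Camk2d encodes the delta chain of CaMKII, a kinase that calcium and calmodulin switch on.

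The libraries differed in depth and in background. Barcodes past the filter had a median of 9652 UMIs in knockout and 3799 UMIs in wild-type cells, and 8032 and 13085 barcodes passed in the knockout and wild-type libraries. Lipid-associated macrophages had a median of 15790.5 UMIs and 3465 genes in the knockout, against 7720.5 UMIs and 2350 genes in the wild type, and their summed UMIs came to 5244841 in KO and 12159941 in WT. Lymphocyte-gated cells were barcodes with at least 20 CP10k of Cd3d, Cd3e, Cd3g, Cd79a, Cd79b and Ms4a1 together. They also held less than 20 CP10k of the C1q genes and less than 40 CP10k of Col1a1, Col3a1 and Dcn. Barcodes with the most stray transcripts of those genes were thus left out. Lymphocyte-gated cells served as a measure of stray transcripts, since they should lack macrophage genes. Their Gpnmb level was 20.7 UMIs in 1000000 (CPM) for the knockout and 91.4 CPM for the wild type, and 48 barcodes occurred in both libraries, of which 0 were lipid-associated macrophages in both.

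The label was checked against a gene that the limits did not use. Lgals3, encoding galectin-3, a lectin of lipid-laden macrophages, stood at 6621 CPM (6552 to 6691) in knockout and 7607 CPM (7558 to 7656) in wild-type lipid-associated macrophages. Other macrophages held 1499 CPM in knockout and 1985 CPM in wild-type cells, and lymphocyte-gated cells 160.4 CPM in KO and 751 CPM in WT. Galectin-3 transcripts were thus highest in the cells that carry the label, in both libraries. The 4 T cell markers summed to 14.5 CPM in knockout and 17.3 CPM in wild-type members, the 3 B cell markers to 7.25 CPM in KO and 22.1 CPM in WT and the 3 adipocyte markers to 8.96 CPM in KO and 6.83 CPM in WT. The osteoclast markers Calcr and Oscar were at 0 in both libraries. The 5 progenitor and fibroblast markers, 3 of which the limits cap, summed to 279 CPM in knockout and 690.2 CPM in wild-type members, against 273 CPM in KO and 924 CPM in WT in lymphocyte-gated cells. The 3 erythroid markers summed to 1280.3 CPM in KO and 4055 CPM in WT in members, against 3054 CPM in KO and 4489 CPM in WT in lymphocyte-gated cells, with all of their genes detected.

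The 4 genes of the lipid limit are given as a description, since they chose the cells. Trem2 averaged 1618 CPM in knockout and 1855 CPM in wild-type members, against 398 CPM in KO and 433 CPM in WT in other macrophages. Gpnmb, a transmembrane glycoprotein of lysosome-stressed macrophages, stood at 1524 CPM in knockout and 1668 CPM in wild-type members. Mmp12, the macrophage elastase, was at 848 CPM in KO and 967 CPM in WT, and Atp6v0d2, a subunit of the proton pump of lysosomes, at 548 CPM in KO and 503 CPM in WT. How often all 4 were seen in a single cell changed with depth. Without thinning, all 4 were seen in 40.5% of knockout and 47.7% of wild-type members, at the median depths given above. With every barcode thinned to 1500 UMIs, all 4 transcripts were seen in 10.2% of knockout members (6.90 to 14.4) and in 11.6% of wild-type members (9.89 to 13.5), and 1 of the 4 in 29.9% in KO and 20.1% in WT.

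Promoters of genes that set these cells apart were searched for 4 short motifs, because members of the MiT/TFE family drive lysosomal genes through E-box and M-box sequences, PU.1 is the master factor of macrophages, and AP-1 acts at many macrophage genes. The window was the 250 bases before each RefSeq transcription start in GRCm38.p6, and both strands were read. It was found for 17 of 19 genes, the 4 genes of the limit and the 15 genes highest in these cells, with 21 promoters in all. Atp6v0d2 and Fabp5 had none in the table used. The E-box core CACGTG, which reads the same on both strands, lay in 2 of these genes, Igf2r and Ctsl, and in 6.02% of all 32851 promoters. The M-box core, CATGTG or CACATG, lay in 5 genes and in 12.3% of all promoters. The AP-1 motif, TGAGTCA or TGACTCA, lay in 2 genes and in 4.46% of promoters, and the PU.1 motif, GAGGAAGT or ACTTCCTC, in 2 genes and in 2.44%. Counted by promoter, as the percentages are, the M-box core lay in 5 of the 21 and each other motif in 2 of the 21. No motif shares its letters with another at a site shown here. The promoters of Mmp12, the integrin gene Itgax, the mannose 6-phosphate receptor gene Igf2r and the protease gene Ctsk show the range, with a motif in capitals where one was found. They are chr9:7344147-7344396 (plus strand), chr7:128129300-128129549 (plus strand), chr17:12769707-12769956 (minus strand) and chr3:95498960-95499209 (plus strand), each written 5' to 3' along its gene.
Mmp12: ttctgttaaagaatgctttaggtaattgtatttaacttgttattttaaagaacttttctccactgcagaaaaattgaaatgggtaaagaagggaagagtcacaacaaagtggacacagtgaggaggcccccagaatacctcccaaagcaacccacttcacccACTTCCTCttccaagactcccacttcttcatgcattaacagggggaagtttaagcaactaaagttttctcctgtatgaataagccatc
Itgax: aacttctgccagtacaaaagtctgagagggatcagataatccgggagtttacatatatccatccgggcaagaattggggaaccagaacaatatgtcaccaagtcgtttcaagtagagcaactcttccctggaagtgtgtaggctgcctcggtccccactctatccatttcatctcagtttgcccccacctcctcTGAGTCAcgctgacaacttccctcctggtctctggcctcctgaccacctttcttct
Igf2r: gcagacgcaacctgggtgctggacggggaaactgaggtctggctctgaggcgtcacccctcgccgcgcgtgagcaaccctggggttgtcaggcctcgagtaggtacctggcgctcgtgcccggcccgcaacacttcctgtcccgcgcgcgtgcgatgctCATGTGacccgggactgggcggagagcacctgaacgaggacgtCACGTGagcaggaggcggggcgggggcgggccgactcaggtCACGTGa
Ctsk: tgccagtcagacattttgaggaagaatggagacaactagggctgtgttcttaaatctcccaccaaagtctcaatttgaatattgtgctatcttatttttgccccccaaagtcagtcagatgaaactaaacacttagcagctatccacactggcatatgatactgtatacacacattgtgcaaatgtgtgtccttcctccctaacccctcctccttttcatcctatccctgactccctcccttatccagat
Mmp12 has a second start in the table, not printed, with an M-box core 83 bases and an AP-1 motif 44 bases before it. In the Mmp12 window shown the capitals mark a PU.1 motif that begins 88 bases before the start, in Itgax an AP-1 motif that begins 56 bases before it. Igf2r carries an M-box core 91 bases and E-box cores 48 and 7 bases before its start. Ctsk is shown because its level was lower in knockout members, as described below, and its window holds none of the 4 motifs. A match describes letters only.

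Lipid-associated macrophages were a smaller share of macrophages in the knockout library. They made up 22.7% of C1q macrophages in the knockout (20.4 to 25.2, 274 of 1207) and 44.0% in the wild type (42.2 to 45.9, 1276 of 2898), with a log2 (knockout over wild type) of -0.96. Of all barcodes past the filter they were 3.41% (3.03 to 3.83) for the knockout and 9.75% (9.25 to 10.3) for the wild type. With the limits applied after thinning every barcode to 1500 UMIs, the shares of macrophages were 20.4% (18.2 to 22.8) for the knockout and 37.9% (36.2 to 39.6) for the wild type. Of lymphocyte-gated cells, 0 of 991 passed the lipid limit in the knockout, which allows up to 0.303%, and 11 of 725 (1.52%) did in the wild type. With limits on thinned barcodes, 2 of 1023 (0.196%) passed in KO and 29 of 856 (3.39%) in WT. The part of stray transcripts in the shares was not tested.

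The shares were also read at other limits. The share of macrophages at or above a given sum of the 4 genes was lower in the knockout at a limit of 10 CP10k, with 33.9% for the knockout and 59.5% for the wild type, and at 30 CP10k, with 8.70% in KO and 19.7% in WT. Among the members themselves the sums were closer, with a median of 25.5 CP10k (quartiles 19.3 and 37.8, highest 176) in knockout and 27.6 CP10k (quartiles 20.3 and 45.9, highest 300.0) in wild-type cells. Members at 120 CP10k or more were 4.01% (11 cells) for the knockout and 3.21% (41 cells) for the wild type. The other macrophages, which lie below the limit by construction, had medians of 4.09 CP10k in KO and 6.61 CP10k in WT.

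**Figure D1:**
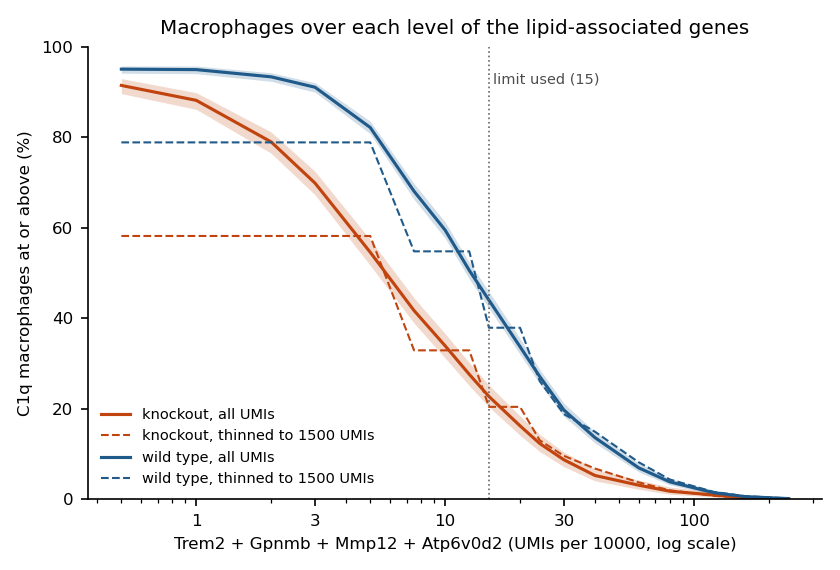
Share of C1q macrophages (y axis, %) at or above each level of the summed Trem2, Gpnmb, Mmp12 and Atp6v0d2 transcripts (x axis, UMIs per 10000, log scale), for the knockout and the wild type, with 95% bands; dashed lines use barcodes thinned to 1500 UMIs, where single UMIs make steps. The knockout curve lies below the wild-type curve at the limit of 15, with 22.7% against 44.0%.

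Cells lay close to the limit on both sides. Just above it, within 10%, lay 25 knockout members (9.12%) and 101 wild-type members (7.92%), and just below it lay 33 knockout and 82 wild-type other macrophages. Lgals3 averaged 3781 CPM just inside and 3151 CPM just outside the limit in the knockout, and 4233 and 3163 CPM in the wild type. Median depths were 14260 UMIs just inside and 15069 UMIs just outside the limit in the knockout, and 4627 and 4850 UMIs in the wild type. At these depths 10% of the limit is few UMIs, so counting error could fill a gap. Whether the limit divides a continuous range was thus not tested.

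Camk2d, the targeted gene, was lower in knockout members. It averaged 21.7 CPM (17.9 to 26.1, 114 UMIs) in knockout and 49.8 CPM (45.9 to 54.0, 606 UMIs) in wild-type members, a log2 ratio of -1.20 (-1.50 to -0.91). In other macrophages the levels were 27.3 CPM in KO and 45.5 CPM in WT (log2 -0.74, -0.95 to -0.53), and in lymphocyte-gated cells, outside the targeted lineage, 113 CPM in KO and 142 CPM in WT. Tags from the 3' end may fall beyond the deleted exons, and the deletion itself was thus not checked. The gene lies at chr3:126596302-126846326 on the plus strand of GRCm38 (GENCODE). Camk2g, the other chain at a readable level, stood at 15.4 CPM in knockout and 13.3 CPM in wild-type members (log2 0.21), while Camk2a held 3.05 CPM in KO and 6.25 CPM in WT and Camk2b 1.14 CPM in KO and 1.40 CPM in WT. Lyz2, the lysozyme gene of myeloid cells, was at 7714 CPM in KO and 6237 CPM in WT.

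Lipid-associated macrophages were then set against the other macrophages of their own library, to see what they share beyond the 4 genes. Among 2510 genes with a mean of at least 50 CPM over members and other macrophages in each library, 73 stood 2-fold or more above other macrophages in both libraries (2.91%) and 96 stood 2-fold or more below (3.82%). At 1.5-fold there were 222 above (8.84%) and 220 below (8.76%). Because all cells come from the same libraries and were divided by a gate, these are descriptions without a test.

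Surface and adhesion genes were among the highest. Itgax, the integrin CD11c that marks macrophages of crown-like structures, stood at 195 CPM in knockout and 187 CPM in wild-type members, against 21.8 CPM in KO and 22.2 CPM in WT in other macrophages (log2 3.16 in KO and 3.07 in WT). Resident-gated macrophages held 6.07 CPM in KO and 12 CPM in WT of it, beside 5.34 CPM in KO and 11.8 CPM in WT in lymphocyte-gated cells. CD11c transcripts were thus about at background in resident-gated cells and far above it in members. Cd9, a tetraspanin, was at 507 CPM in knockout and 465 CPM in wild-type members, against 158 CPM in KO and 119 CPM in WT in other macrophages (log2 1.68 in KO and 1.96 in WT). Adam8, a membrane protease, was at 259 CPM in KO and 267 CPM in WT, against 40.5 CPM in KO and 49.3 CPM in WT (log2 2.68 in KO and 2.44 in WT). Il7r, the interleukin 7 receptor chain better known in lymphocytes, was at 209 CPM in knockout and 204 CPM in wild-type members, against 30.8 CPM in KO and 40.6 CPM in WT in other macrophages. Lymphocyte-gated cells carried 190.4 CPM in KO and 93.7 CPM in WT of Il7r, while the T cell markers stayed at the levels given above in members. Actn1, an actin crosslinker, had log2 ratios of 2.23 in KO and 1.82 in WT, and Rnf128, a ubiquitin ligase, of 2.52 in KO and 2.22 in WT.

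Genes of lipid handling were higher in members of both libraries. Fabp5, a fatty acid carrier, stood at 1414 CPM in knockout and 1288 CPM in wild-type members, against 260.1 CPM in KO and 271 CPM in WT in other macrophages (log2 2.44 in KO and 2.25 in WT). Lpl, which frees fatty acids from lipoproteins, was at 4669 CPM in knockout and 4123 CPM in wild-type members and at 1600.4 CPM in KO and 1202 CPM in WT in other macrophages. Of 10 measured genes of lipid uptake and storage, 6 were at least 1.5-fold higher in members in both libraries and 0 lower, with medians of 0.93 in KO and 1.10 in WT. The share among all 7047 genes with a mean of 10 CPM or more was 6.14% higher and 8.02% lower, with medians of all genes of 0.03 for the knockout and 0.01 for the wild type. Plin2, a coat protein of lipid droplets (log2 1.31 in KO and 1.14 in WT), and Soat1, which esterifies cholesterol (1.27 in KO and 1.22 in WT), were among the 6. Apoe, the carrier of exported cholesterol, had log2 ratios of 0.02 in KO and -0.34 in WT, and the exporter Abca1 of -0.58 in KO and -0.42 in WT, while the exporter Abcg1 had 1.15 in KO and 1.00 in WT. The 2 export pumps thus lay on opposite sides.

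Of 20 genes of the lipid-associated program that the limits did not use, 17 were at least 1.5-fold higher in members and 0 lower, with medians of 1.34 for the knockout and 1.30 for the wild type. Mfge8, which bridges dying cells to phagocytes, had log2 ratios of 3.36 in KO and 2.74 in WT, Spp1, the secreted osteopontin, of 1.91 in KO and 2.04 in WT, and Syngr1, a vesicle protein, of 2.39 in KO and 1.62 in WT. Anxa5 and Vim were 2 of the 3 that stayed within 1.5-fold in at least 1 library, and Fabp4 was the other, at log2 0.23 for the knockout and 0.96 for the wild type. Fabp4 is also transcribed in adipocytes and endothelium, and with 1673 CPM in KO and 1120.3 CPM in WT it made up nearly all of the summed endothelial markers, 1694 CPM in knockout and 1129.5 CPM in wild-type members.

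Lysosomal genes were higher by gene and not as a block. Of 22 acid hydrolases and lysosomal proteins, 8 were at least 1.5-fold higher in members in both libraries, 0 lower and 14 between, with medians of 0.46 in KO and 0.37 in WT. Ctsl, a cathepsin, stood at 2321 CPM in knockout and 1961 CPM in wild-type members, against 381 CPM in KO and 631 CPM in WT in other macrophages (log2 2.61 in KO and 1.64 in WT). Ctsd (1.65 in KO and 1.36 in WT) and Lipa, the acid lipase that frees cholesterol and fatty acids from lipid (1.37 in KO and 1.34 in WT), were also among the 8. Lamp1, a membrane protein of all lysosomes, had log2 ratios of 0.09 in KO and -0.10 in WT, and Grn of 0.03 in KO and -0.09 in WT. Of 14 subunits of the vacuolar proton pump, which acidifies lysosomes, 6 were higher and 0 lower, with Atp6v1b2 at 1.26 in KO and 0.87 in WT and Atp6v1h at -0.14 in KO and -0.05 in WT. The factors Mitf, Tfeb and Tfe3 had ratios between -0.38 and 0.80. Acp5, the tartrate-resistant phosphatase known from osteoclasts, was at 126 CPM in knockout and 114 CPM in wild-type members, against 32.8 CPM in KO and 32.4 CPM in WT in other macrophages, but also at 89.1 CPM in KO and 75.4 CPM in WT in lymphocyte-gated cells. Igf2r, which carries hydrolases to lysosomes, had log2 ratios of 1.65 in KO and 1.74 in WT.

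Energy gene lists had medians above 0 in both libraries, and the counts past 1.5-fold differed by pathway. Among all 7047 genes with a mean of 10 CPM or more, 6.14% were higher and 8.02% lower. Of 13 measured glycolysis genes 7 were higher in members in both libraries and 0 lower, with Hk3 at 1.14 in KO and 1.27 in WT and Pkm at 1.11 in KO and 1.19 in WT. Of 17 oxidative phosphorylation genes, 0 were past 1.5-fold in both libraries, although the median was 0.37 in each. Fatty acid oxidation had 2 higher, 0 lower and 6 between, with medians of 0.26 in KO and 0.21 in WT. The glycolysis medians were 0.73 in KO and 0.66 in WT.

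**Figure D2:**
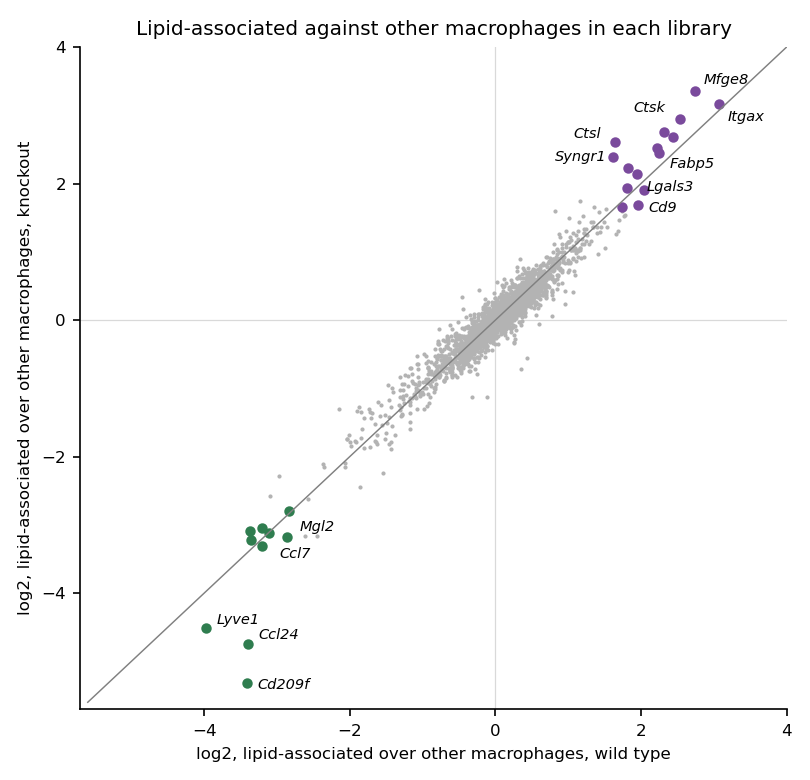
Log2 ratio of lipid-associated over other macrophages for 2510 genes, in the knockout (y axis) and in the wild type (x axis), without the genes of the limits. Purple points are the 15 named genes highest and green points the 10 lowest in both libraries, and the diagonal marks equal ratios: Itgax lies at 3.16 in KO and 3.07 in WT, Lyve1 at -4.51 in KO and -3.97 in WT.

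Genes of resident, perivascular macrophages were lower in members. Lyve1, a hyaluronan receptor of such cells, stood at 14.3 CPM (75 UMIs) in knockout and 17.4 CPM (211 UMIs) in wild-type members, against 325 CPM in KO and 272 CPM in WT in other macrophages (log2 -4.51 in KO and -3.97 in WT). Lymphocyte-gated cells held 2.5 CPM in KO and 9.55 CPM in WT of it. Of 12 measured resident genes 10 were lower in members in both libraries and 0 higher, with medians of -1.72 in KO and -1.86 in WT. Cbr2, a carbonyl reductase (-3.31 in KO and -3.21 in WT), and Fcna, a secreted lectin (-3.09 in KO and -3.37 in WT), were among the 10 lowest named genes, and so were Ednrb, an endothelin receptor (-3.23 in KO and -3.36 in WT), Ltc4s, which makes leukotriene C4 (-3.05 in KO and -3.20 in WT), and the receptor Lifr (-2.80 in KO and -2.84 in WT). Yet single cells combined both. At least 10 CP10k of Lyve1, Folr2, Cd163 and Timd4 together were present in 17.2% of knockout members (12.9 to 22.1) and 13.9% of wild-type members (12.1 to 16.0), against 36.4% of knockout and 27.6% of wild-type other macrophages. After thinning, the shares in members were 17.9% in KO and 15% in WT. Folr2 made up most of this sum in members, with 400.2 of 459 CPM in KO and 489.7 of 521 CPM in WT. It lay within 1.5-fold of other macrophages (log2 -0.51 in KO and -0.43 in WT). The shares thus mostly describe Folr2 and not the resident genes as a set.

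Of the 27 lists, the medians furthest from 0 were those of chemokines that draw monocytes. Of 9 measured, 7 were lower in members in both libraries and 0 higher, with medians of -3.12 for the knockout and -2.45 for the wild type. Ccl2 stood at 221 CPM in knockout and 165 CPM in wild-type members, against 1988 CPM in KO and 901 CPM in WT in other macrophages. Resident-gated macrophages held 3274 CPM in KO and 1537 CPM in WT of it, the highest of the macrophage groups. Ccl7 was at 160.2 CPM in KO and 73.6 CPM in WT in members, against 1389 CPM in KO and 636 CPM in WT, and Ccl24, which draws eosinophils, at 18.1 CPM in KO and 24.8 CPM in WT, against 485 CPM in KO and 262 CPM in WT. The exceptions were Ccl6, at log2 -0.17 in KO and -0.34 in WT, and Ccl9, at 0.20 in KO and 0.47 in WT.

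Genes of alternative activation were mostly lower in members, with 7 of 10 lower, 1 higher and 2 between. Mgl2, a lectin, was at -3.18 in KO and -2.86 in WT, the mannose receptor Mrc1 at -1.44 in KO and -1.71 in WT and the transcription factor Klf4 at -1.68 in KO and -1.63 in WT, while Pparg, the lipid-sensing nuclear receptor, was the 1 higher, at 0.88 in KO and 0.90 in WT. Immediate early genes, which also respond to tissue handling, were lower for 13 of 14, with medians of -0.82 in KO and -0.97 in WT. Of 12 inflammatory genes 0 were past 1.5-fold in both libraries, and of 7 MHC class II genes also 0. Inflammatory and antigen-presenting transcripts thus lay within 1.5-fold of other macrophages in at least 1 library.

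**Figure D3:**
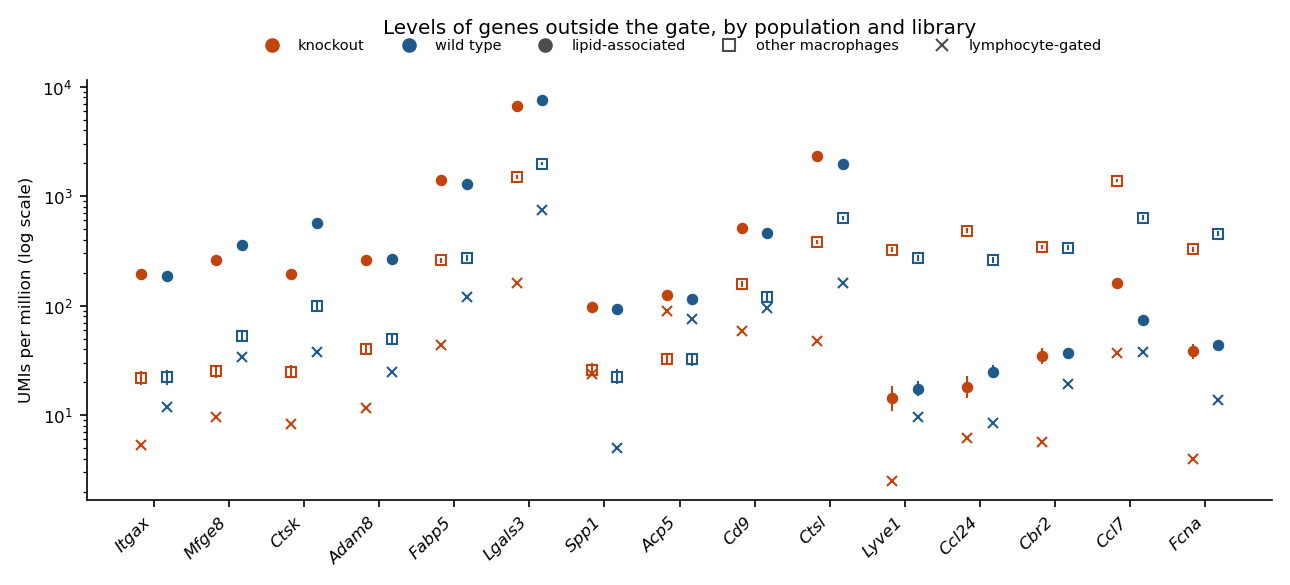
Level (y axis, CPM, log scale) of 15 genes outside the limits in lipid-associated macrophages (filled circles), other macrophages (open squares) and lymphocyte-gated cells (crosses) of the knockout (orange) and wild type (blue), with 95% counting intervals on the macrophage points. Itgax to Ctsl lie higher in members, Lyve1 to Fcna lower, and Ctsk shows the widest gap between knockout and wild-type members, 194 against 568 CPM.

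Knockout and wild-type members were then compared with each other. Among 2620 genes with a mean of at least 50 CPM over the libraries, 10 stood 2-fold or more above the wild type in knockout members (0.382%) and 10 stood 2-fold or more below (0.382%), with a median log2 ratio of all genes of -0.02. At 1.5-fold, 67 genes stood higher (2.56%) and 32 lower (1.22%). Of the 10 lower genes, 7 had a lymphocyte-gated level of at least 50% of the level in members, in the library where they were higher. They were Col1a2, Col3a1, Hbb-bs, Hbb-bt, Hba-a1, Hba-a2 and Gm26917, and Ctsk, Nes and Cpe remained. None of the 10 higher genes did so. Of 2640 genes at the same floor in other macrophages, 30 stood 2-fold or more higher in the knockout and 24 lower. The 30 included 8 of the 10 higher genes of members. The 24 included 8 of the 10 lower genes, of which 8 could be read there. Most of these differences were thus shared with other macrophages of the same libraries.

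Of the 2620 genes, the highest ratio was that of Retnla, a secreted product of alternative activation. It stood at 4658 CPM in knockout and 1190.2 CPM in wild-type members, a log2 ratio of 1.97 (1.94 to 2.0). In other macrophages Retnla was at 6565 CPM in knockout and 2345 CPM in wild-type cells, and in lymphocyte-gated cells at 120.1 CPM in KO and 133 CPM in WT. Other alternative activation genes did not share the size of this ratio. Of 9 measured genes, 2 were at least 1.5-fold above the wild type, 0 lower and 7 between, with a median of 0.21 (-0.18 with means of per-cell CPM). Among all 7269 genes with a mean of 10 CPM or more, 2.05% were higher and 3.88% lower by 1.5-fold, with a median of -0.06. Pparg, the second of the 2, was at 49.8 CPM in KO and 32.8 CPM in WT, while Mrc1 (0.23), Klf4 (0.07) and Mgl2 (-0.52) were between.

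Inflammatory genes stood higher in knockout members. Of 13 measured, 7 were at least 1.5-fold higher, 0 lower and 6 between, with a median of 0.67. Without Cxcl3, which reached 10 CPM in the knockout only, 6 of 12 were higher. Il1b, encoding interleukin 1 beta, was at 889 CPM in knockout and 339 CPM in wild-type members (log2 1.39, 1.33 to 1.45), and Nlrp3, the inflammasome sensor that leads to its cleavage, at 202 CPM in KO and 98.9 CPM in WT (log2 1.03, 0.91 to 1.15). Il1a was at 43.7 CPM in KO and 13.9 CPM in WT (log2 1.65), Cxcl3 at 16.6 CPM in KO and 5.26 CPM in WT (1.66) and Ptgs2, which starts prostaglandin synthesis, at 45.4 CPM in KO and 19.4 CPM in WT (1.23). Both interleukin 1 genes and the inflammasome sensor therefore lay on the same side. The most abundant member of the list, the neutrophil attractant Cxcl2, was at 6297 CPM in knockout and 4819.6 CPM in wild-type members (0.39), and Il18 was at 10.5 CPM in KO and 13.1 CPM in WT (-0.32). Other macrophages of the same libraries had a list median of 0.96, with Il1b at 989.5 CPM in knockout and 313 CPM in wild-type cells. The 3 neutrophil markers summed to 645 CPM in knockout and 7.40 CPM in wild-type other macrophages, but to 8.77 CPM in knockout and 23.2 CPM in wild-type members, and their part in the list was not tested. The difference between the populations was not tested.

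Further genes at least 2-fold higher in knockout members were Tnfsf9, the ligand of a T cell costimulatory receptor (124 CPM in knockout and 50.3 CPM in wild-type members), and the actin regulator Marcksl1 (188 CPM in KO and 77.9 CPM in WT). Sdc4, a cell-surface proteoglycan, was at 608 CPM in knockout and 286 CPM in wild-type members, and Cebpb, a transcription factor of inflammatory genes, at 543 CPM in KO and 260.4 CPM in WT. Ccl7 was at 160.2 CPM in KO and 73.6 CPM in WT (log2 1.12, 0.98 to 1.26), and of 8 measured monocyte-drawing chemokines 2 were higher in the knockout, 0 lower and 6 between. Lyz1 (92.5 CPM in KO and 32.2 CPM in WT) and Ear2 (112 CPM in KO and 47.6 CPM in WT) belong to families of close copies, so their counts are uncertain. With equal weight for each of 4 bins of the limit-gene sum, Ccl7 (0.79), Sdc4 (0.84), Nlrp3 (0.87) and Cebpb (0.94) were under 2-fold and Lyz1 was under a mean of 50 CPM. At a lipid limit of 30 CP10k Lyz1 was at 0.68, Nlrp3 at 0.85 and Marcksl1 at 0.99. Next in rank were Phlda1 (0.96) and Cytip (0.95), and Cytip was at 395 CPM in KO and 211 CPM in WT in lymphocyte-gated cells.

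Interferon response and antigen presentation were also higher. Of 10 measured interferon response genes 6 were at least 1.5-fold higher in knockout members, 0 lower and 4 between, with a median of 0.64. Cxcl9, a T cell attractant that interferon gamma induces, reached 10 CPM in the knockout only, and without it 5 of 9 were higher. It was at 21.0 CPM (17.2 to 25.3) in knockout and 1.56 CPM (0.941 to 2.44) in wild-type members, a log2 ratio of 3.75 (3.04 to 4.53) on 110 UMIs in KO and 19 UMIs in WT. Ifi27l2a was at 915 CPM in KO and 500.3 CPM in WT (0.87), and Rsad2 at 19.8 CPM in KO and 19.2 CPM in WT (0.04). Of 7 MHC class II genes 4 were higher and 3 between, with a median of 0.62. H2-Eb1 stood at 3619 CPM in knockout and 2185 CPM in wild-type members (log2 0.73, 0.70 to 0.76), the invariant chain gene Cd74 at 7722 CPM in KO and 5351 CPM in WT (0.53) and Ciita, the regulator of the set, at 49.4 CPM in KO and 38.4 CPM in WT (0.36). Lymphocyte-gated cells had 1021 CPM of H2-Eb1 in KO and 1526 CPM in WT; these include B cells, which transcribe class II genes, and their B cell markers summed to 1607 CPM in KO and 2613 CPM in WT. Among other macrophages the medians of knockout over wild type were 0.53 for both lists. Cd163, the haemoglobin scavenger receptor, was the 1 of 12 resident genes past 1.5-fold, at 42.7 CPM in knockout and 13.3 CPM in wild-type members (log2 1.68, 1.38 to 1.98).

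**Figure D4:**
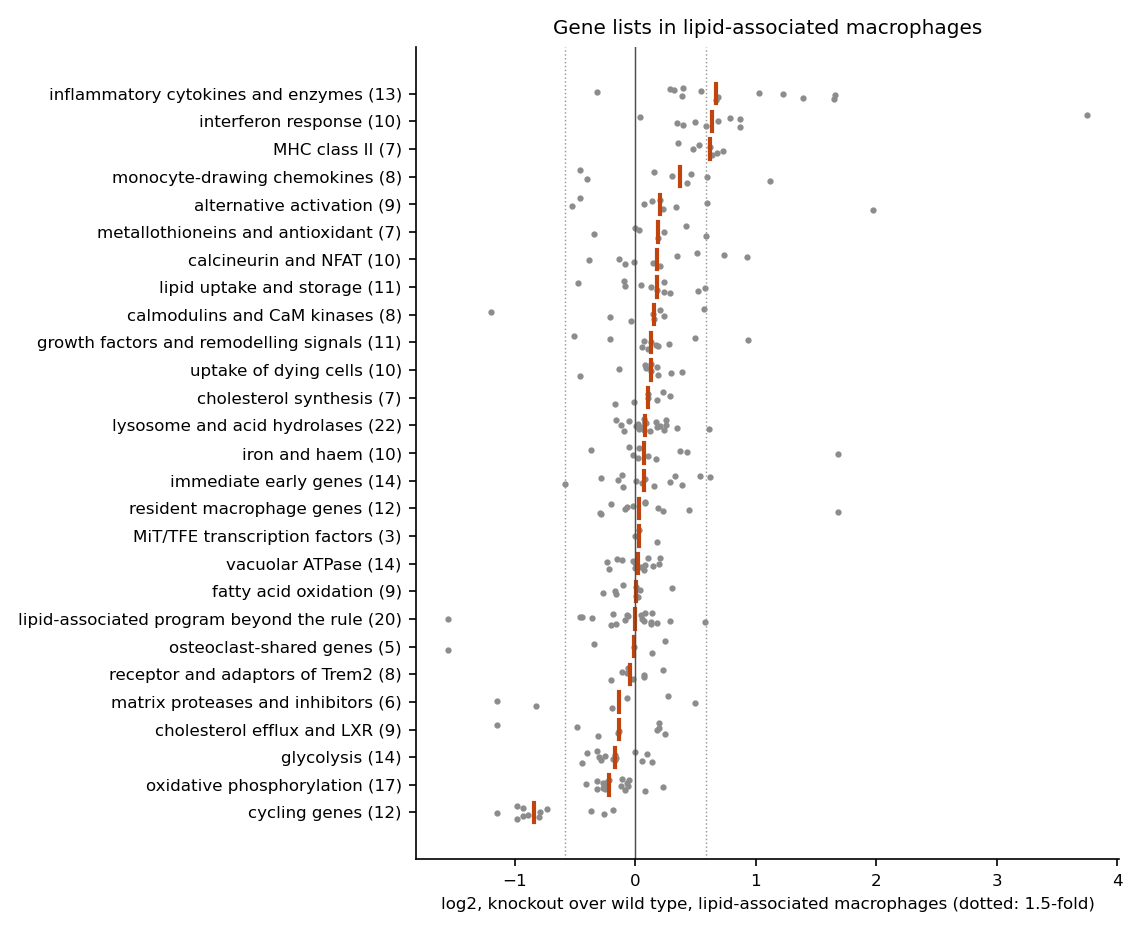
Log2 ratio of knockout over wild type in lipid-associated macrophages (x axis) for each measured gene (grey points) of 27 gene lists, with the number measured in brackets, the list median as an orange bar and 1.5-fold as dotted lines. The inflammatory, interferon and MHC class II lists have medians of 0.67, 0.64 and 0.62, and the cycling list of -0.84.

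Among members, chosen by the same limits in both libraries, the lipid-associated program was close to level between genotypes, with Ctsk as the exception. Of its 20 genes outside the limits, 0 were at least 1.5-fold higher in knockout members, 1 was lower and 19 were between, with a median of -0.00. Itgax was at 195 CPM in knockout and 187 CPM in wild-type members (log2 0.06, -0.05 to 0.17), Fabp5 at 1414 CPM in KO and 1288 CPM in WT (0.13), Spp1 at 97.4 CPM in KO and 92.8 CPM in WT (0.07) and Mfge8 at 259 CPM in KO and 356 CPM in WT (-0.46). Most of this list was thus near level between members of the libraries. Genes such as Itgax climbed with the sum of the limit genes, as described below. The limit itself may thus set part of the like levels in members, but this was not tested. The medians were 0.08 for lysosomal genes (1 higher, Ctss, 0 lower, 21 between), 0.02 for the proton pump (14 of 14 between) and 0.18 for lipid uptake and storage (11 of 11 between). For Tyrobp, the adaptor of Trem2, the ratio was -0.02, and for Syk 0.07.

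Ctsk, encoding cathepsin K, a collagen-degrading protease best known from osteoclasts, was at 194 CPM (182 to 206, 1015 UMIs) in knockout and 568 CPM (554 to 581, 6903 UMIs) in wild-type members. The log2 ratio was -1.55 (-1.65 to -1.46), on chr3:95499256-95509362 of the plus strand (GRCm38, GENCODE). Other macrophages held 25 CPM in knockout and 98.6 CPM in wild-type cells (log2 -1.98), and lymphocyte-gated cells 8.34 CPM in KO and 37.7 CPM in WT, so the gene ran the same way in stray transcripts, at a level far below that of members. Acp5, which osteoclasts also use to degrade bone, was at 126 CPM in KO and 114 CPM in WT (0.14), and the fusion gene Dcstamp at 13.3 CPM in KO and 16.9 CPM in WT (-0.34). Of 11 genes shared with osteoclasts 5 were measured, and Ctsk was the 1 past 1.5-fold. Its shift thus did not extend to the measured osteoclast genes. Under the floor of 10 CPM, Itgb3 (-1.66), Car2 (-1.50), Ocstamp (-0.66) and Mmp9 (-0.52) were also lower in the knockout, at levels too low to read. Cpe, a carboxypeptidase, was at 38.1 CPM in knockout and 77.2 CPM in wild-type members (log2 -1.02, -1.25 to -0.80), and Nes, an intermediate filament gene, at 46.5 CPM in KO and 107 CPM in WT (-1.20, -1.41 to -1.01). With equal weight per bin Cpe was at -0.03, which ends its call, and it was at -0.46 at a lipid limit of 30 CP10k, while Nes was at -0.94 with means of per-cell CPM. Pcdh7, a cadherin, was at 81.8 CPM in KO and 149.5 CPM in WT (-0.87). Both Cpe and Nes were also higher in members than in other macrophages, with log2 ratios for Cpe of 2.92 in KO and 2.42 in WT and for Nes of 1.40 in KO and 2.18 in WT.

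Collagen genes of stromal cells made up part of the lower side. Col1a2 was at 36.0 CPM in knockout and 119.8 CPM in wild-type members (log2 -1.73), beside 27.7 CPM in KO and 161 CPM in WT in lymphocyte-gated cells. Dpt, a matrix protein, was at 34.5 CPM in KO and 68.8 CPM in WT (-1.0), beside 29.9 CPM in KO and 91.2 CPM in WT. Their levels in members were near those in cells that should lack them, and the part of stray transcripts was not tested. Qpct was at -0.79 and Tppp3 at -0.75.

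Cycling transcripts were lower in knockout members as a whole, but not at every sum of the limit genes. Of 12 measured cycling genes 9 were at least 1.5-fold lower, 0 higher and 3 between, with a median of -0.84, against -0.17 in other macrophages. Mki67, a marker of dividing cells, was at 44.8 CPM in knockout and 88.7 CPM in wild-type members (log2 -0.98, -1.19 to -0.78), Top2a, which untangles DNA for division, at 37.6 CPM in KO and 65.2 CPM in WT (-0.80) and the tubulin regulator Stmn1 at 128 CPM in KO and 220.1 CPM in WT (-0.79). At 1500 UMIs per barcode, at least 2 UMIs over 6 cycling genes were found in 3 of 274 knockout members (1.09%, 0.226 to 3.17) and in 79 of 1276 wild-type members (6.19%, 4.93 to 7.66). Without thinning the shares were 15.3% in KO and 19.1% in WT, at the median depths given above. Other macrophages had thinned shares of 3.32% for the knockout and 5.55% for the wild type. Lymphocyte-gated cells had 3.73% in KO and 1.79% in WT, the other direction. The knockout value rests on 3 cells, and Mki67 was at -0.37 when members were chosen on thinned barcodes. Without Tyms, which reached 10 CPM in the wild type only, 8 of 11 cycling genes were lower. The list median was -0.27 at a lipid limit of 30 CP10k, -0.42 with equal weight per bin of the sum and -0.44 with limits on thinned barcodes. Top2a was at -0.05 at the lipid limit of 30 and at -0.16 with equal weight. Between 60 and 120 CP10k the direction turned, with Mki67 at 91.3 CPM in KO and 55.7 CPM in WT and Top2a at 80.6 CPM in KO and 44.5 CPM in WT. At 120 CP10k or more Mki67 was at 75.5 CPM in KO and 133 CPM in WT, and Top2a at 142 CPM in KO and 116 CPM in WT. The replication histone gene Hist1h2ap, one of a family of close copies, was at -0.97, and at -0.09 at the lipid limit of 30.

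Other lists were closer to level. Of 6 measured matrix proteases and inhibitors 2 were lower in KO members, the gelatinase Mmp2 at 10.3 CPM in KO and 22.9 CPM in WT and Mmp14, which activates it, at 9.15 CPM in KO and 16.2 CPM in WT, and 0 were higher (1 of 5 lower without Mmp14, which reached 10 CPM in the wild type only). Lymphocyte-gated cells held 7.51 CPM in KO and 26.9 CPM in WT of Mmp2, and 5.17 CPM in KO and 20.9 CPM in WT of Mmp14. Glycolysis had a median of -0.17 (14 of 14 between) and oxidative phosphorylation of -0.22 (17 of 17 between). The list of cholesterol efflux and LXR, which also holds fatty acid desaturases, had a median of -0.13 with 1 of 9 lower. This was the desaturase Scd2, at 6.48 CPM in KO and 14.4 CPM in WT and so past 10 CPM in the wild type only. The exporters Abca1 (-0.31) and Abcg1 (0.25) were between. Cholesterol synthesis had a median of 0.11 with 7 of 7 between. In the list of calcineurin, the calcium-activated phosphatase, and NFAT, 2 of 10 genes were higher, with the feedback inhibitor Rcan1 at 121 CPM in knockout and 63.4 CPM in wild-type members (0.93) and Egr3 at 26.7 CPM in KO and 16.0 CPM in WT (0.74).

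Members varied widely along the sum of the 4 limit genes, and several genes were read again at equal sums. The bins were 15 to 30, 30 to 60, 60 to 120 and at least 120 CP10k, with 169, 68, 26 and 11 knockout cells and 704, 372, 159 and 41 wild-type cells. Ctsk was at 71.2, 158, 314 and 874 CPM over these bins in the knockout and at 242, 473, 820.1 and 2316 CPM in the wild type. It was higher in each bin than in the one before and lower in the knockout in each of the 4, with intervals that do not overlap. Ctsl was at 827, 1474, 4739 and 10227 CPM in the knockout and at 847, 1574, 3810.3 and 5147 CPM in the wild type. Itgax was at 82.2, 196, 371 and 611 CPM in the knockout and at 64.2, 156, 319 and 702 CPM in the wild type. Protease genes and CD11c therefore followed the sum in both libraries, and Ctsl stood higher in the knockout in the top 2 bins. The top knockout bin is 11 cells.

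Retnla, Il1b and H2-Eb1, picked after their values were seen, ran the other way along the sum among members. Retnla was at 6447, 4044, 1662 and 91.6 CPM over the 4 bins in the knockout and at 2056, 784, 576 and 51.4 CPM in the wild type. Il1b was at 1162, 838, 403 and 117 CPM in the knockout and at 439, 365, 166 and 133 CPM in the wild type. H2-Eb1 was at 4590.2, 3659, 1666 and 618 CPM in the knockout and at 2962, 2079, 1357 and 587 CPM in the wild type. These 3 genes were lowest in the cells richest in the limit genes, in both libraries. Below the limit they did not follow one direction. Other macrophages with a sum of 0 held less Il1b (661 CPM in KO and 354 CPM in WT) than the first bin. They also held less H2-Eb1 (4053 CPM in KO and 2143 CPM in WT). Retnla there was at 5790.3 CPM in KO, below the first bin, and at 2371 CPM in WT, above it. In the top bin the intervals of Retnla (65.4 to 125 for the knockout and 36.6 to 70.3 for the wild type), of Il1b (86.9 to 153 for the knockout and 108 to 162 for the wild type) and of H2-Eb1 (546 to 696 for the knockout and 534 to 644 for the wild type) overlap. Ccl2 was at 266, 297, 39.0 and 25.2 CPM in the knockout and at 217, 146, 116 and 97.6 CPM in the wild type, higher in the knockout in the first 2 bins and lower in the last 2. Cell depth also differed over the bins, with medians of 14154, 16523, 26521.5 and 30072 UMIs in the knockout and 5147, 10236.5, 13946 and 15307 UMIs in the wild type, and its part was not tested. A bin's genes share a fixed total, so a gene that takes more of it leaves less for the rest. The part of this in the falling levels was not tested.

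**Figure D5:**
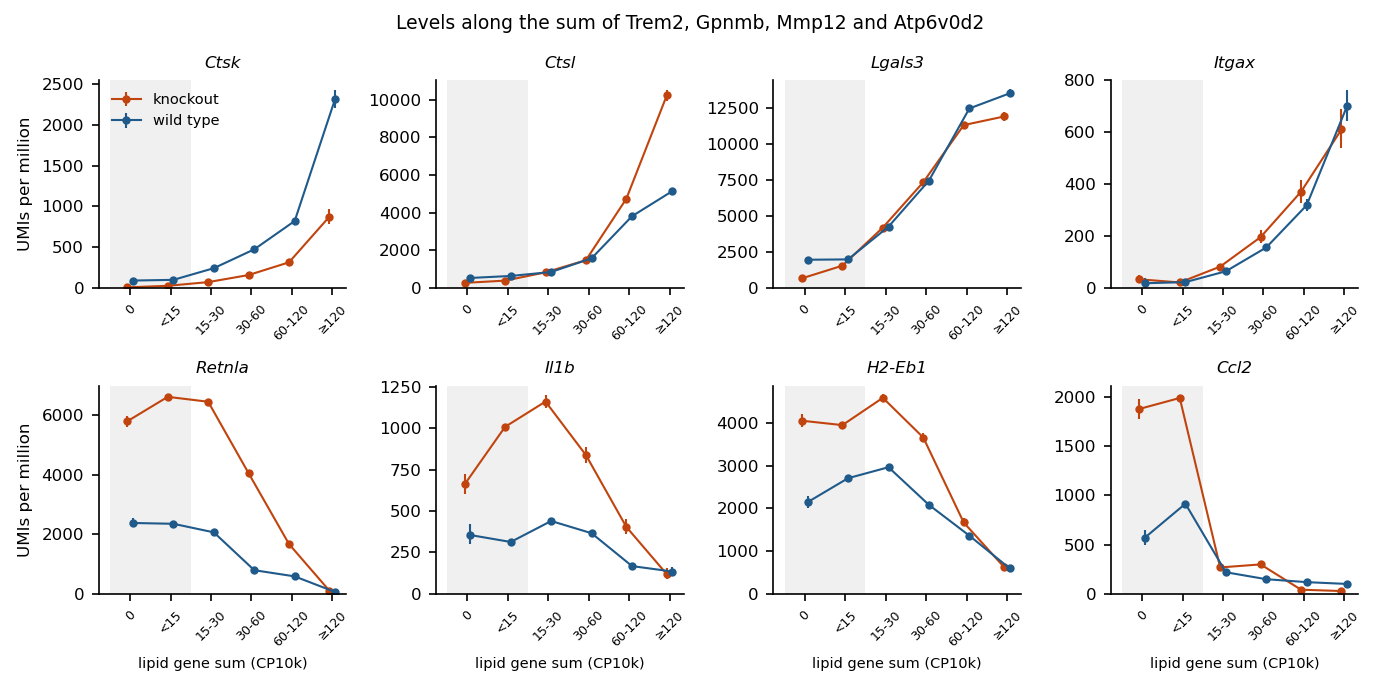
Level (y axis, CPM) of 8 genes in C1q macrophages binned by the summed Trem2, Gpnmb, Mmp12 and Atp6v0d2 transcripts (x axis, UMIs per 10000), for the knockout and the wild type, with 95% counting intervals and other macrophages on grey. Ctsk, Ctsl, Lgals3 and Itgax climb with the sum and Retnla, Il1b and H2-Eb1 fall to low values in the top bin, where Ctsk is at 874 CPM in knockout and 2316 CPM in wild-type cells.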

How the data were processed

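The authors deposited raw UMI counts for 32285 genes in a matrix for each library, and nothing was realigned. Cell Ranger 5.0.0, Seurat 4.1.1 and mm10 are named in the submitters' processing notes. The deposited labels call the tissue epididymal fat, except for 1 description field that names embryonic hindlimb, and they give 10000 to 13000 loaded cells. Total depth was 87015918 knockout and 75436677 wild-type UMIs.

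Members were chosen by the limits given in the results, and UMIs were summed per library and divided by their total (CPM). Levels have exact Poisson, ratios exact conditional and shares Clopper-Pearson 95% intervals, all for counting error only, and 0 counts allow up to 3. Gene counts cover genes with a mean of 50 CPM over the groups compared and 30 UMIs in the higher one, list members a mean of 10 CPM. With 1 library per genotype, called means past a fold of 2 for genes and 1.5 for lists. Counts of lipid-associated over other macrophages need the fold in both libraries. Named genes are the 12 highest and 12 lowest between genotypes and the 15 highest and 10 lowest against other macrophages, without ribosomal, mitochondrial, haemoglobin, immunoglobulin and Gm genes. From each list come its most abundant member and those with the highest and lowest ratio. Other list members, and genes shown along the bins, were picked after their values were seen. The members, the 27 lists (314 genes) and these rules were chosen with earlier results of these data known.

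Doublets were kept as the limits keep them; Scrublet (scanpy 1.11.5) scores of 0.25 or more marked 0.730% of knockout and 1.57% of wild-type members. The alternatives were other limits, barcode filters, removal of doublets or of barcodes with lymphoid UMIs, thinning, floors, folds, per-cell means, equal weight per bin, TMM (edgeR 4.0.16) and median-of-ratios scaling. The code ran in Python 3.11.15 with numpy 2.4.6, scipy 1.17.1 and pandas 2.3.3 and was tested on simulated data. Promoters came from RefSeq and gene positions from GENCODE, both for GRCm38, the build also called mm10.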

Additional observations from a re-analysis of the deposited data

How the results depend on the processing

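Of 189 summary values, 612 gene values and 351 list medians recomputed under other settings, 137, 389 and 298 stayed near the value reported. No ratio of a named gene changed sign, and no list median past 1.5-fold did. The gene values cover only the named genes, 24 between genotypes and 25 against other macrophages. These were picked for the most extreme ratios, so their signs say little about other genes. Of the 27 list medians between genotypes 9 changed sign under at least 1 setting (32 values), all of them within 0.21 of 0 as reported, and the lipid-associated program, at -0.00, lay on either side of 0. No paired analysis was possible because each genotype has 1 library. The share of macrophages was 33.9% in KO and 59.5% in WT at a lipid limit of 10 CP10k and 8.70% in KO and 19.7% in WT at 30, where its log2 ratio was -1.18. The wild-type share was 48.1% at a collagen limit of 10, 47.5% with the stricter filter, 37.9% with limits on thinned barcodes and 42.0% without cycling barcodes. The share of filtered barcodes was 5.09% in KO and 13.2% in WT at the lipid limit of 10, 1.31% in KO and 4.37% in WT at 30 (log2 -1.74), 4.24% in KO and 11.5% in WT without barcodes with lymphoid UMIs, and, in the wild type, 6.63% at the collagen limit (log2 -1.01), 12.2% with the stricter filter (log2 -1.88) and 8.72% without cycling barcodes. In wild-type members, resident genes were in 18.4% at the lipid limit of 30 and 16.6% at the collagen limit, and cycling UMIs in 21.6% with the stricter filter. The removal of cycling barcodes, of genes near their lymphocyte-gated level and of list members that reached 10 CPM in 1 library only was chosen after seeing the data.

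Genes higher in knockout members, 10 as reported, were 16 at the lipid limit of 10, at the collagen limit of 10 and with limits on thinned barcodes, 17 with median-of-ratios scaling, 5 with equal weight per bin, 24 at a floor of 20 CPM, 68 with no floor, 67 at 1.5-fold and 1 at 3-fold. Genes lower, also 10, were 34 with per-cell means, 32 at a floor of 20, 6 at 100, 441 with no floor, 32 at 1.5-fold, 6 at 3-fold and 3 without genes near their lymphocyte-gated level. Against other macrophages, 73 higher and 96 lower genes became 41 and 56 with per-cell means, 112 and 159 at a floor of 20, 45 and 63 at 100, 187 and 421 with no floor, 222 and 220 at 1.5-fold and 17 and 35 at 3-fold. Fewer or more genes pass each floor and fold by construction, and for the other settings the cause was not tested. Median-of-ratios scaling moved the median of all genes between genotypes by 0.11 (log2), and TMM by 0.08. Depth limits genes of few UMIs, such as Cxcl9, which rests on 19 UMIs in the wild type.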

Other observations

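Growth factor, iron and antioxidant genes of lipid-associated macrophages were split. Vegfa, which drives vessel growth, was higher in members than in other macrophages, at log2 1.95 for the knockout and 1.10 for the wild type, and Pdgfb, which draws mural cells, at 0.72 in KO and 1.08 in WT. Bmp2, a signal to stromal cells, was lower, at -2.60 in KO and -2.64 in WT, and Pdgfc at -1.31 in KO and -1.68 in WT. Among the iron and haem genes Slc48a1, which moves haem out of lysosomes, was at 1.27 in KO and 1.06 in WT, the ferritin gene Fth1 at 0.85 in KO and 0.76 in WT, and the iron exporter Slc40a1 at -1.48 in KO and -1.53 in WT. Hmox1, which breaks haem down, was at -0.30 in KO and -0.65 in WT. Prdx1, a peroxide-reducing enzyme, was at 1.03 in KO and 1.04 in WT, while the metallothionein Mt2 was at -1.14 in KO and -1.15 in WT. Between genotypes Gdf15, a stress-induced hormone, was at 164 CPM in knockout and 234 CPM in wild-type members (-0.51), and Mt2 at 271 CPM in KO and 180.1 CPM in WT (0.59).

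Cd209f, a lectin gene of resident cells, was at 4.58 CPM (24 UMIs) in knockout and 23.8 CPM (290 UMIs) in wild-type members, a log2 ratio of -2.38 (-3.05 to -1.78), below the level at which genes were counted.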
